A study of Mus musculus with 2 samples.

Results

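The Ms4a genes encode a family of small membrane proteins that cross the membrane several times and are found mainly on blood cells. Here 8 genes of the family that are known from myeloid cells and lymphocytes were followed: Ms4a4a, Ms4a4b, Ms4a4c, Ms4a4d, Ms4a6b, Ms4a6c, Ms4a6d and Ms4a7. All 8 were in the count table, and the 6 with at least 20 reads summed over both libraries are described as members, of 21983 genes in the table and 13317 that met the same minimum. The least abundant member was Ms4a4c with 26 summed counts, and the listed genes below the minimum were Ms4a4a with 5 and Ms4a4b with 3. The genes were chosen by their counts and ratios in these same libraries, with those values in view, so the ratios are given as a description.

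The libraries were made from total RNA of primary mouse chondrocytes with the genotype WT, the cells that make and maintain cartilage. Of the 2 libraries, 1 came from cells given recombinant mouse Sparcl1 protein at 50 ng/ml and 1 from cells given PBS, each for 3 days. Sparcl1 is a secreted protein of the extracellular matrix related to Sparc. There was 1 library per group, so nothing here has a replicate check, and the libraries were compared without any test or p-value. The Sparcl1 library held 26871933 counts and the PBS library 29858851.

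Family members are often named for their best-known cell. Ms4a1 encodes CD20, the B cell antigen targeted by therapeutic antibodies, and Ms4a2 encodes the beta chain of the high-affinity IgE receptor of mast cells. In macrophages, Ms4a4a is known to associate with Dectin-1, a receptor for fungal sugars, and in humans variants near MS4A4A and MS4A6A are linked to the amount of soluble TREM2, a receptor of microglia and macrophages. In mouse, several Ms4a proteins also serve as odour receptors in a subset of olfactory neurons.

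The label "myeloid cells" was checked against marker genes, since the labels name only chondrocytes. Macrophage markers were present: all 20 of the list had at least 20 summed counts, and together they held 3231 CPM (counts at a common library size) in the Sparcl1 library and 2920 CPM in the PBS library. A large part came from 1 gene, Lyz2, with 1640 CPM in the Sparcl1 library and 1327 CPM in the PBS library. Chondrocyte markers held 12122 CPM in the Sparcl1 library and 13852 CPM in the PBS library. Of 10 monocyte markers 6 were measured, and the list held 170 CPM in the Sparcl1 library and 158 CPM in the PBS library. Markers of the other blood cells were mostly below 20 summed counts. None of 10 B cell markers reached 20 summed counts (Cd79b, Blk and Fcmr, for instance, had no count), and of 13 T and NK cell markers only Tnfrsf18 did, with Cd3d, Cd3e and Cd3g at 0. Of 9 mast cell and basophil markers 2 reached it, Gata2 and Kit, which other cells also express, while Mcpt4, Tpsb2, Cma1 and Fcer1a were at 0. The neutrophil list had 2 of 10 measured and the dendritic cell list 2 of 8. Of the dendritic cell markers, Itgax had 381 counts in the Sparcl1 library and 369 in the PBS library. In bulk libraries, fewer cells of a type and less RNA per cell cannot be told apart.

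The 6 members lie within a cluster on mouse chromosome 19. From Ms4a7 to Ms4a6d, the span of the 8 listed genes runs from 11321039 to 11604849 (GRCm38, the assembly that mm10 names, with GENCODE M21 gene models), 284 kb in all. Ms4a7 (11321039 to 11336146) and Ms4a6d (11586604 to 11604849) are on the minus strand. Ms4a4a, Ms4a4c, Ms4a4b, Ms4a6c, Ms4a6b and Ms4a4d lie between them, in this order, on the plus strand. The sequences below are the promoters of the pairs that are most alike, from 250 bases before to 50 bases after the RefSeq transcript start (GRCm38.p6). They are shown because the genes of each pair have closely alike promoters. Ms4a6c had more counts than Ms4a6b in both libraries. Ms4a4c had more than Ms4a4b in the PBS library only (25 against 0), with 1 against 3 in the Sparcl1 library. Capitals mark matches to GAGGAA, the core bound by the myeloid factor PU.1, and to AGGAAGT, a core of the wider ETS family to which PU.1 belongs, on either strand.
Ms4a4c (chr19:11407411-11407710, + strand): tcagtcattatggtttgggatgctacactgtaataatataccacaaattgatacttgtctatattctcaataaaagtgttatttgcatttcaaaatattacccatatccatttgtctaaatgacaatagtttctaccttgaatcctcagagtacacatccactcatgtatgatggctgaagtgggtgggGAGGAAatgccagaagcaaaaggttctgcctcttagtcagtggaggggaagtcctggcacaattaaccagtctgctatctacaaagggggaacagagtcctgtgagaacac
Ms4a4b (chr19:11443308-11443607, + strand): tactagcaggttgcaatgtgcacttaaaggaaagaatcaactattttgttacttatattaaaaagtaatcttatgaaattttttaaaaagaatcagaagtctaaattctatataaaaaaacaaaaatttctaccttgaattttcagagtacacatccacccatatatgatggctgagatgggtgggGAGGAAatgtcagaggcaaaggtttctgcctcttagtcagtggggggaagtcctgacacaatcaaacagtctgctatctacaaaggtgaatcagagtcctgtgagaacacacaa
Ms4a6b (chr19:11518309-11518608, + strand): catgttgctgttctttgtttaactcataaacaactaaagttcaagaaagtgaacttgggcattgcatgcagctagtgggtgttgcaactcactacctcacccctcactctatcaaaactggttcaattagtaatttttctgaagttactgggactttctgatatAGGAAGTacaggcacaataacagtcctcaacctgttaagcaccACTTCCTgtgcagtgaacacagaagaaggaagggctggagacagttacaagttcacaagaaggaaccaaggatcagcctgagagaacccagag
Ms4a6c (chr19:11469118-11469417, + strand): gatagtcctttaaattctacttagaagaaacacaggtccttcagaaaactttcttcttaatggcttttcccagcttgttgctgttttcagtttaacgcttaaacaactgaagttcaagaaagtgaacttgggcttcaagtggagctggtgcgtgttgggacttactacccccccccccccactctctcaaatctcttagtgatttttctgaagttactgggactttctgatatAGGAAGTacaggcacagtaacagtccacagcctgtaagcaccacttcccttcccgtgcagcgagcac
The Ms4a6b and Ms4a6c promoters were identical at 85.3% of 225 aligned bases, and those of Ms4a4b and Ms4a4c at 81.9% of 281. The next most similar pair, Ms4a4d and Ms4a7, shared 67.0% of 227. GAGGAA begins 61 bases before the start of Ms4a4c and 64 before that of Ms4a4b, and it is also found in Ms4a7, 44 bases into the transcript. AGGAAGT begins 17 bases before the start of Ms4a6c, and in Ms4a6b it is found at 86 bases before the start and, on the other strand, at 43 before. Over 32851 promoters in the table, 28.3% held GAGGAA and 9.35% held AGGAAGT, which overlap where GAGGAA is followed by GT. The core of the interferon-stimulated response element (GAAA, any 2 bases, GAAA) was found in 3.44% of all promoters, and a STAT site (TTC, any 3 bases, GAA) in 8.30%, on either strand. Neither was found in the promoters of the 7 listed genes in that table (the promoter of Ms4a6d was not used here). These are matches of letters in 1 window of 300 bases and say nothing of binding.

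Sequence likeness also bears on the counts, because reads from near-identical copies can be lost or shared. Over their coding sequences, Ms4a4b and Ms4a4c were identical at 91.7% of 678 aligned bases, Ms4a4c and Ms4a4d at 87.9%, Ms4a6b and Ms4a6c at 85.4%, and Ms4a6b and Ms4a6d at 81.2%. Exact repeats were fewer the longer the window, and the read length is not given in the sources used here. Of all 50-base windows, 8.19% in the transcripts of Ms4a4c, 3.57% in those of Ms4a6b and 2.54% in those of Ms4a6d were also present in another gene. Of the 100-base windows of Ms4a4c, 1.66% were also present in another gene, all of them in Ms4a4b, and of 150-base windows none was. For Ms4a4d, Ms4a6b, Ms4a6d and Ms4a7 no 100-base window was shared. Ms4a6c was different: 45.8% of its 100-base windows were found in another gene, all of them in the antisense gene BE692007, which overlaps 1088 of its exon bases. The strand setting of the counting is not given in the sources used here, so the Ms4a6c count is uncertain for that reason.

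Across the members, reads concentrated in 3 genes in both libraries. Ms4a7 held 41.8% of the members' 1410 counts in the Sparcl1 library and 41.1% of their 1900 counts in the PBS library. Ms4a6d held 33.0% in the Sparcl1 library and 31.6% in the PBS library, and Ms4a6c 17.2% and 17.5% in the same order. The share of Ms4a6b was 4.33% in the Sparcl1 library and 6.16% in the PBS library, that of Ms4a4d 3.62% and 2.37%, and that of Ms4a4c 0.0709% and 1.32%. The mix of the 3 leading genes thus differed by under 2 percentage points, and the larger relative differences were among the rare members. Together the members made up 0.00525% of the Sparcl1 library and 0.00636% of the PBS library.

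Per length, the order of the members was the same in both libraries when counts were divided by the bases of all annotated exons. Ms4a6d stood highest, at 9.85 CPM per kilobase in the Sparcl1 library and 11.7 in the PBS library, above 65.5% and 70.5% of measured genes. Ms4a7 followed at 4.86 and 5.94 CPM per kilobase, and Ms4a6c at 4.36 and 5.49. The counting intervals of Ms4a7 (4.48 to 5.27 in the Sparcl1 library, 5.53 to 6.37 in the PBS library) and Ms4a6c (3.83 to 4.94 and 4.92 to 6.11) overlap in each library. Ms4a4d stood at 1.24 and 1.01 CPM per kilobase, Ms4a6b at 0.500 and 0.884, and Ms4a4c at 0.0210 and 0.484, with Ms4a4d and Ms4a6b overlapping in the PBS library. The order depends on the length used. An alternative added after the data were seen took the length of the transcript that has the longest coding sequence. With it Ms4a7 came first, at 13.7 CPM per kilobase in the Sparcl1 library and 16.8 in the PBS library. Ms4a6d was second at 12.1 and 14.4. By this length the order differed between the libraries. Ms4a6b stood below Ms4a4d in the Sparcl1 library (0.837 against 1.24) and above it in the PBS library (1.48 against 1.01).

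Most members were slightly less abundant in the Sparcl1 library than in the PBS library, and 1 of them, Ms4a4c, was lower by the rule of size. A gene was called higher or lower when its summed counts reached 20, its log2 ratio of CPM (Sparcl1 over PBS) reached 1 or -1, and its 95% counting interval left out 0. By this rule 0.946% of the 13317 genes were lower and 0.954% were higher, and of the 6 members 1 was lower and none was higher. The median log2 ratio of the members was -0.31, with a median of -0.0019 over all 13317 genes. Ratios of 5 members lay below 1, as did those of 50.4% of all genes, and for these 5 the interval lay wholly below 0, as it did for 21.6% of all genes. It lay wholly above 0 for no member and for 20.1% of all genes. Since the genes were proposed from this same contrast, nothing is read from these counts. Intervals hold counting error alone and set 1 library against the other, so they do not speak for the treatment.

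Ms4a4c is listed among the interferon-induced genes of mouse myeloid cells. It had 1 count in the Sparcl1 library and 25 in the PBS library. That is 0.0368 CPM in the Sparcl1 library and 0.847 CPM in the PBS library, a log2 ratio of -4.53. No other of the 13317 genes had a lower ratio. With a single read on 1 side its size is poorly fixed: the 95% counting interval runs from -9.89 to -1.92, and adding a prior count of 2 brings the ratio to -3.10. Its closest relative, Ms4a4b, which is best known from T cells where it associates with the receptor GITR, had 3 counts in the Sparcl1 library and none in the PBS library. Both values are at or under 3 counts, so no ratio is given. Most lymphocyte markers were rare as well. Together the 10 B cell markers held 0.368 CPM in the Sparcl1 library and 1.22 CPM in the PBS library. Among them Cd79a, a chain of the B cell receptor, had 0 and 15 counts in the same order. The T and NK cell list held more than Ms4a4c, at 5.44 and 4.61 CPM, mostly from Tnfrsf18. The part of lymphocytes in the Ms4a4c difference was not tested. The gene of GITR itself is Tnfrsf18, which was measured at 120 counts in the Sparcl1 library and 121 in the PBS library.

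The remaining genes of the Ms4a4 group were scarce too. Ms4a4d, whose role is less well known, had 51 counts in the Sparcl1 library and 45 in the PBS library. Its log2 ratio of 0.30 was the 1 positive value among the members, and its interval (-0.31 to 0.91) includes 0. Ms4a4a had 3 counts in the Sparcl1 library and 2 in the PBS library, at the limit of what this depth can show. Clec7a, the gene of its partner Dectin-1, had 175 counts in the Sparcl1 library and 200 in the PBS library (log2 ratio -0.08, -0.38 to 0.22).

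The 3 Ms4a6 genes all had fewer reads in the Sparcl1 library, and none passed the rule of size. Ms4a6d, which in mouse macrophages is known as a partner of the receptor Vsig4, had 465 counts (17.1 CPM) in the Sparcl1 library and 601 (20.4 CPM) in the PBS library, a log2 ratio of -0.25 (-0.43 to -0.08). Ms4a6c had 243 counts (8.93 CPM) in the Sparcl1 library and 332 (11.3 CPM) in the PBS library, a log2 ratio of -0.33 (-0.58 to -0.09). Ms4a6b was the farthest of the 3 from equal, with 61 counts (2.24 CPM) in the Sparcl1 library and 117 (3.97 CPM) in the PBS library, a log2 ratio of -0.82 (-1.29 to -0.36). Summed over the 3 genes, the counts were 769 in the Sparcl1 library and 1050 in the PBS library, a log2 ratio of -0.33 (-0.47 to -0.20).

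Ms4a7, a gene used to mark macrophages of the tissue borders and of blood origin in mouse brain, was the most abundant member by reads. It had 589 counts (21.7 CPM) in the Sparcl1 library and 780 (26.4 CPM) in the PBS library. The log2 ratio was -0.29 (-0.44 to -0.13), or 1.22-fold lower in the Sparcl1 library, below the rule of size. All 6 members together had 1410 counts (51.8 CPM) in the Sparcl1 library and 1900 (64.4 CPM) in the PBS library, a log2 ratio of -0.31 (-0.41 to -0.21). Leaving out Ms4a7 gave -0.33. The members were chosen with their ratios in view and 4 of the 5 left also had ratios below 1, so nothing is read from this value.

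**Figure D1:**
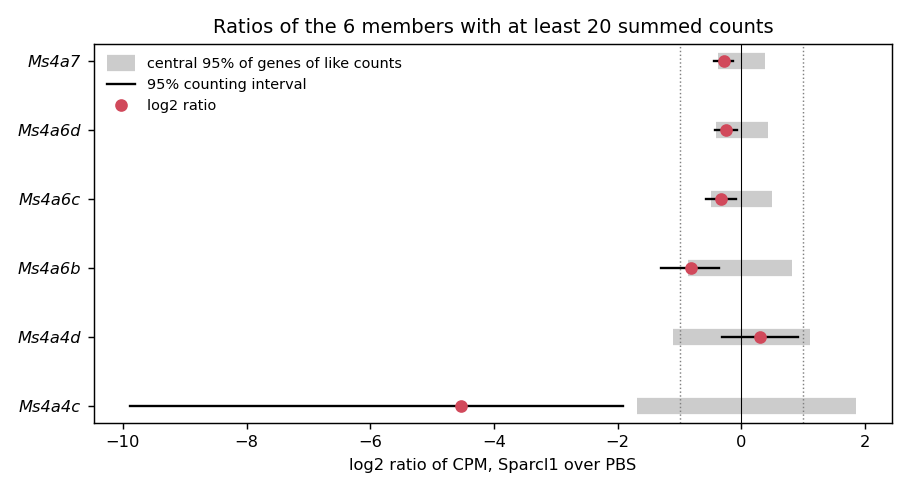
The log2 ratio of CPM, Sparcl1 over PBS (x axis), for each of the 6 members (red points), with the 95% counting interval (black lines) and the central 95% of ratios among genes with summed counts within 2-fold of the member (grey bars). Dotted lines mark the size of 1 used for a call. The grey bars hold only genes with at least 20 summed counts, and only Ms4a4c, at -4.53, lies outside its bar. Ms4a4c met that minimum through the PBS library alone.

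Set beside genes of similar abundance, 5 of the 6 members were inside the common range. Among 4605 genes other than the members with summed counts within 2-fold of those of Ms4a7, the central 95% of ratios lay between -0.38 and 0.39 (log2), and Ms4a7 (-0.29) lay within it. Ms4a6d (-0.25) lay within the -0.42 to 0.42 of its 4196 genes, and Ms4a6c (-0.33) within the -0.49 to 0.50 of its 3074. Ms4a6b, at -0.82, was close to the lower edge of its range (-0.87 to 0.81, 1611 genes). Ms4a4c, at -4.53, was outside its range (-1.69 to 1.85, 821 genes). It met the minimum count through the PBS library alone, so nothing is read from this place. Of all 13317 genes, 251 had a lower ratio than Ms4a6b and 1388 a lower ratio than Ms4a7.

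**Figure D2:**
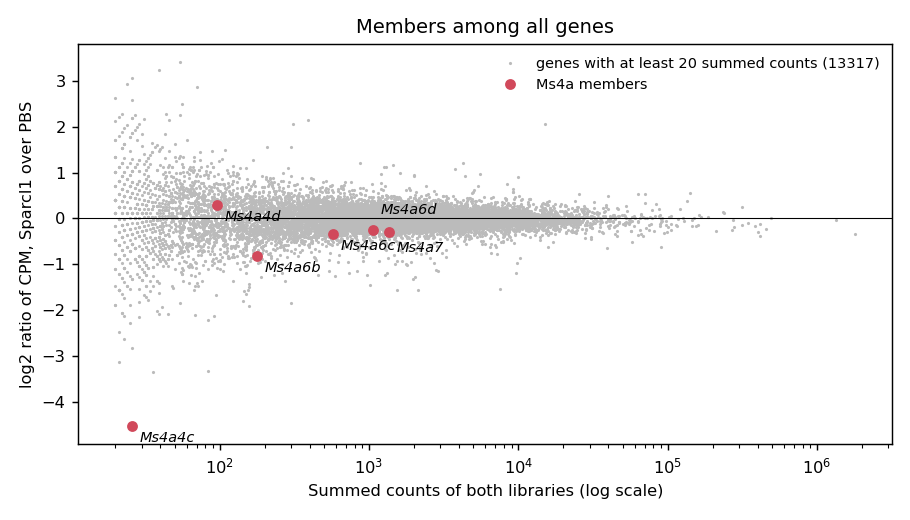
Each point is 1 of the 13317 genes with at least 20 summed counts, placed by its summed counts over both libraries (x axis, log scale) and its log2 ratio of CPM, Sparcl1 over PBS (y axis), with the 6 members in red. Ratios spread widely at low counts, where Ms4a4c (26 summed counts) has the lowest value. Ms4a4c met the minimum through the PBS library alone. Ms4a7, Ms4a6d and Ms4a6c lie in the lower part of the dense band.

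Other genes of the family were mostly silent. Of 11 further Ms4a genes in the table, 8 had no count in either library: Ms4a2, Ms4a3 (a gene of granulocyte and monocyte progenitors), Ms4a5, Ms4a8a, Ms4a10, Ms4a12, Ms4a13 and Ms4a18. Ms4a1, the CD20 gene, had no count in the Sparcl1 library and 1 in the PBS library, and Ms4a15 had 1 in the Sparcl1 library and none in the PBS library. Ms4a14, the neighbour of Ms4a7, was the exception, with 57 counts in the Sparcl1 library and 71 in the PBS library (log2 ratio -0.20, -0.73 to 0.32). Tmem176a and Tmem176b, which encode related membrane proteins and lie on chromosome 6, were far more abundant. Tmem176b stood at 64.6 CPM per kilobase in the Sparcl1 library and 57.2 in the PBS library, with a log2 ratio of 0.17 (0.11 to 0.24), and Tmem176a had a log2 ratio of 0.16 (0.08 to 0.23). Their ratios lay above 1, unlike those of 5 of the 6 members.

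Within 500 kb of the cluster, 39 other genes were in the table and 10 were measured, of which none passed the rule of size. Their median log2 ratio was 0.03, with values from -0.20 to 0.15. The most abundant per kilobase were Tmem109, at 0.03, the sterol-binding protein gene Osbp, at -0.08, and Tmem132a, at 0.05. Slc15a3, a peptide transporter of myeloid endosomes, was at 0.15, and Stx3, a membrane fusion protein gene, at -0.06. The values of these flanking genes lay closer to 0 than those of any of the 6 members. The members were chosen with their ratios in view and the neighbours by position, so nothing is read from this contrast. Counting intervals also overlap: the neighbour Ms4a14 was at -0.20 (-0.73 to 0.32) and the member Ms4a6d at -0.25 (-0.43 to -0.08).

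**Figure D3:**
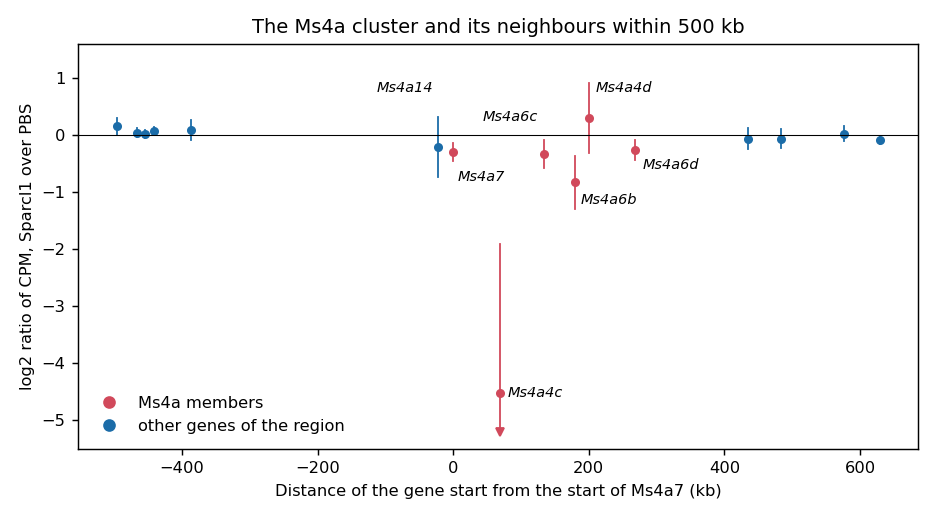
The log2 ratio of CPM, Sparcl1 over PBS (y axis), of the genes with at least 20 summed counts in and around the cluster, by the distance of each gene's start from that of Ms4a7 in kb (x axis), with 95% counting intervals as lines. Members are red and other genes of the region blue. The neighbours lie between -0.20 and 0.15, and the interval of Ms4a4c runs below the axis, to -9.89 (arrow).

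Macrophage markers as a list had a median ratio close to 1. Of 20 measured genes 1 was higher and none was lower by the rule of size, and the median log2 ratio was 0.04, with 9 ratios below 1 and 11 above. The 1 higher gene was the scavenger receptor gene Marco, with 17 counts in the Sparcl1 library and 6 in the PBS library (log2 ratio 1.62, 0.21 to 3.25). The most abundant per length were Lyz2 (lysozyme), at 0.31, and the complement gene C1qb, at -0.04. Csf1r, the receptor for the macrophage growth factor, was at -0.05 (-0.09 to -0.0046). Members' counts per 1000 Csf1r counts were 155 in the Sparcl1 library and 187 in the PBS library, and per 1000 counts of Adgre1 (F4/80) they were 324 and 402. Relative to Ptprc, the pan-leukocyte gene of CD45, they were 786 per 1000 in the Sparcl1 library and 854 in the PBS library, a log2 difference of -0.12. Set against each of the 20 macrophage markers in turn, the members' summed log2 ratio differed by -1.93 with Marco to 0.30 with Fcgr1. It was below 0 with 18 of them, with a median of -0.35, and above 0 with Aif1 and Fcgr1, so its size and direction depend on the marker chosen. The members were chosen with their ratios in this contrast in view, so nothing is read from this tally. Of the 20 markers, 4 had intervals wholly below 0: Fcgr1 at -0.61 (195 counts in the Sparcl1 library and 323 in the PBS library), Ptprc at -0.19, Laptm5 at -0.11 and Csf1r. Another 7 had intervals wholly above 0, namely Lyz2, Mrc1, Cd14, Itgam, Marco, Msr1 and Spi1.

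Receptors and adaptors that have been linked to Ms4a proteins were measured next. Of 12 genes for Fc receptors, Dectin-1, TREM2 and their adaptors, 10 were measured and none passed the rule, with a median log2 ratio of 0.15 and values from -0.61 (Fcgr1) to 0.80 (Fcgr2b). The shared adaptor genes Tyrobp and Fcer1g were abundant, at 114 and 100 CPM per kilobase in the Sparcl1 library and 102 and 93.4 in the PBS library. Their log2 ratios were 0.15 and 0.10. Trem2 had no count in either library, and neither did Fcer1a, the alpha chain of the IgE receptor; a count of 0 allows up to 3 counts at this depth. Monocyte markers had 6 measured of 10, none past the rule, and a median of 0.01. Among them Cx3cr1, the fractalkine receptor gene, was at -0.42 (973 counts in the Sparcl1 library and 1410 in the PBS library), while Hp, which encodes haptoglobin, was at 0.60.

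Both lists of macrophage activation had medians above 0. Bulk libraries of chondrocyte cultures do not tell which cells the reads of these lists came from. Genes of alternative activation, the state driven by IL-4 in which human MS4A4A is raised, had 4 of 14 measured and none past the rule, with a median log2 ratio of 0.18. Retnla, Chil3, Ccl24 and Pdcd1lg2 had no count, and Il4ra, the IL-4 receptor gene, was at 0.56. Genes of classical activation had 6 of 12 measured genes higher and none lower, with a median of 1.06. The 2 highest were Nos2, the inducible nitric oxide synthase gene, with 61 counts in the Sparcl1 library and 9 in the PBS library (log2 ratio 2.88), and Acod1, which makes itaconate, with 47 and 9 in the same order (2.50). Ccl5, a chemokine gene, was at 2.15, and Slc7a2, an arginine transporter gene, at -0.27. Summed over its 14 genes, the classical list held 318 CPM in the Sparcl1 library and 342 CPM in the PBS library (log2 ratio -0.11). Slc7a2 alone held 250 and 301 CPM in the same order.

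The list of interferon-stimulated genes had a median below 0. Of 35 measured genes 15 were lower and none was higher, with a median log2 ratio of -0.97 and 34 ratios below 1. The lowest were Ifi209, of the DNA-sensing Ifi200 family, at -1.84, and Usp18, which removes Isg15 from proteins, at -1.56. Ifitm3, the most abundant per length, was at -0.24, and Bst2, which tethers virus, at -0.78. Ms4a4c, at -4.53, was below every gene of this list, though with 1 read in the Sparcl1 library. It met the minimum count through the PBS library alone. Ms4a6b, at -0.82, was near the median of the list. The other 4 members, from -0.33 to 0.30, were above it. All values come from the same pair of libraries, so a shared direction is no independent evidence, and whether the members' ratios move with the interferon genes was not tested.

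**Figure D4:**
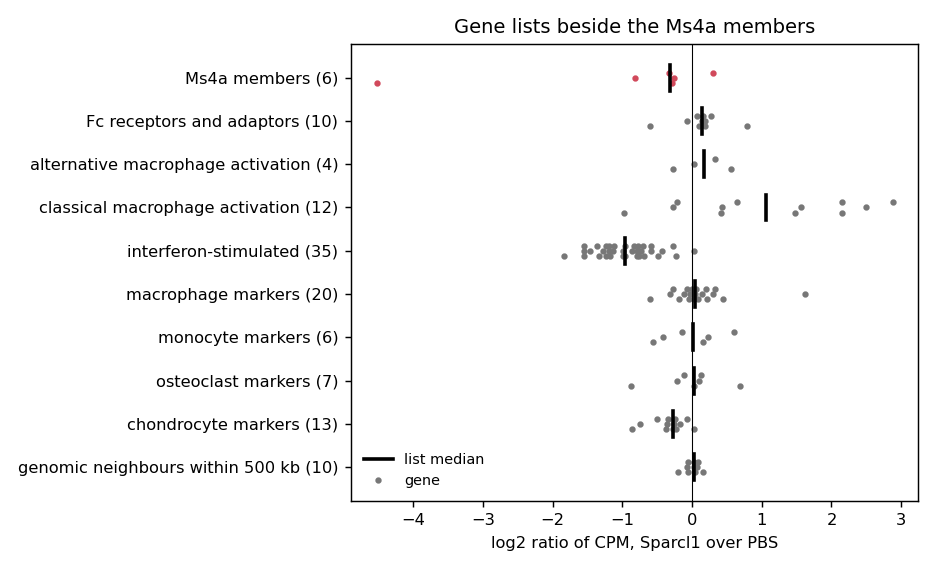
The log2 ratio of CPM, Sparcl1 over PBS (x axis), of each measured gene (points) in lists with at least 4 measured genes, with the number measured in brackets and the list median as a black bar; the Ms4a members are red and at the top. The members' median of -0.31 is nearest to that of the chondrocyte markers (-0.27). It lies between that of the interferon-stimulated genes (-0.97) and that of the macrophage markers (0.04).

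The remaining lists give the setting. For 13 chondrocyte markers the median log2 ratio was -0.27, with none past the rule. Of their ratios 12 lay below 1, the lowest being Chad at -0.86, and Comp, at 0.03, was the 1 above. Col2a1, the main cartilage collagen gene, was at -0.24. Osteoclast markers, from cells that share their precursors with macrophages, had a median of 0.03 over 7 genes, with Ctsk at 0.03 and Nfatc1 at 0.13. The dendritic cell markers measured were Itgax, at 0.16, and Zbtb46, at 0.06. Of the neutrophil markers, S100a8 was higher by the rule of size, with 31 counts in the Sparcl1 library and 15 in the PBS library (log2 ratio 1.16), and Csf3r was at -0.35. Of the mast cell and basophil list, Gata2 was at -0.05 and Kit at -1.08 with an interval that includes 0 (-2.60 to 0.29).

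With 2 libraries, likeness of pattern comes down to 1 ratio, and many genes share it. The genes nearest to Ms4a7 in log2 ratio, among 4606 genes with summed counts within 2-fold of its own (other members included), were Pou2f1, Fam13c and Ift20, each at -0.29. As many as 505 of the 4606 (11.0%) lay within 0.1 of the Ms4a7 ratio, so these names carry little weight.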

How the data were processed

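Total RNA of 2 cultures of primary mouse chondrocytes was sequenced, 1 library per group. The authors deposited whole-number counts of reads per gene symbol, not normalized, with 1 column per library, identified by its name. Per the submitters' processing notes, the build was mm10 and the tools were HTSeq, STAR, FastQC and Trimmomatic. Tool versions, annotation, strandedness and the handling of multi-mapping reads are not given in the sources used here.

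Counts were scaled to CPM with TMM factors (trimmed mean of M-values), 1.01 for the Sparcl1 library and 0.988 for the PBS library (edgeR 4.0.16, R 4.3.3). Each gene's log2 ratio has an exact 95% Clopper-Pearson interval on the Sparcl1 library's part of its counts. Without molecular identifiers, PCR copies count as separate reads, so intervals cover counting error only. Levels in CPM per kilobase have exact Poisson intervals. A count of 0 entered a ratio as 3 counts, and no ratio is given where both counts are at most 3. The steps were tested on simulated data.

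Lengths and coordinates come from GENCODE M21 (GRCm38), to which 99.6% of symbols matched, and promoters from RefSeq (GRCm38.p6), which held 7 of the 8 listed genes. Coding sequences and promoters were aligned with Biopython 1.88. Of 200 list entries 199 were in the table, 2 by an older symbol, and 1 is not reported here by itself.

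Named genes are the 8 listed genes, all other Ms4a genes, Tmem176a and Tmem176b, the most abundant genes of each list per length, its 2 highest and 2 lowest past the rule of size, the 3 most abundant neighbours, and 3 genes nearest in ratio to the member with most counts. Others were named after their values were seen. The members and lists were chosen with earlier results of these data known. As alternatives, library sizes came from total counts, upper-quartile factors or DESeq2 1.42.0 size factors, with no minimum or 100 summed counts, ratios of 1.5-fold and 3-fold, and a prior count of 2. Python 3.11.15, scipy 1.17.1, pandas 2.3.3 and matplotlib 3.10.9 were used.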

Additional observations from a re-analysis of the deposited data

How the results depend on the processing

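Log2 ratios of the 6 members and their median kept their sign under total counts, DESeq2 size factors and upper-quartile factors, which shift all genes alike, here by at most 0.035. Ms4a4c was the 1 member called under each scaling, at 3-fold and with no minimum. With at least 100 summed counts, which leaves it out, 0 members were lower. Of the 11910 genes that met this minimum, 20 were higher (0.168%) and 38 lower (0.319%), against 127 and 126 of 13317. At 1.5-fold, 2 members were lower (Ms4a4c and Ms4a6b), with 309 higher (2.32%) and 313 lower genes (2.35%) of 13317. At 3-fold, 44 genes were higher (0.33%) and 36 lower (0.27%). With no minimum, 201 were higher (1.25%) and 183 lower (1.14%) of 16084 genes. No paired analysis was possible because there was 1 library per group, and no library could be left out. Depth limits Ms4a4a, Ms4a4b and Ms4a4c most. A difference between cultures cannot be told apart from one between treatments.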
